A study of Mus musculus with 24 samples.

Results

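Expression of 8 genes that are used as markers of resident perivascular macrophages was followed in epididymal white adipose tissue (eWAT): *Mrc1*, *Cd163*, *Lyve1*, *Folr2*, *F13a1*, *Retnla*, *Clec10a* and *Mgl2*. The genes were chosen by name, all 8 were in the table of 16730 genes, and all 8 were among the 15020 genes that passed the filter on low counts (at least 1 CPM, counts scaled to library size, in 3 or more mice). Whole eWAT from 24 male mice was sequenced from the 3′ ends of its transcripts (QuantSeq), with 6 mice in each of 4 groups. Mice labelled wild type (floxed) carried *Lama4* with 1 exon between loxP sites and no Cre (*Lama4* fl/fl, here floxed), and their littermates labelled LAMA4 knockout carried the same floxed gene with Cre under the adiponectin promoter, which is active in adipocytes (*Lama4* AKO, here AKO). All mice therefore had the floxed allele, and other cells that make laminin alpha 4 were not targeted. Each genotype was fed regular chow (diet 5015) or a high-fat diet (HFD, 45% fat) for 20 weeks. The comparisons addressed whether the adipose transcriptome responded to HFD and to loss of adipocyte *Lama4*. Separate mice are the replicates.

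Resident macrophages of adipose tissue lie along vessels and between adipocytes, take up material from blood and interstitial fluid, and are recognised by scavenger receptors and lectins on their surface. Macrophages that accumulate in obese fat carry a different set of genes for lipid handling. *Mrc1* encodes the mannose receptor, *Cd163* the scavenger receptor for haptoglobin-hemoglobin complexes, *Lyve1* a hyaluronan receptor that lymphatic endothelium also carries, and *Folr2* a folate receptor. *Clec10a* and *Mgl2* encode neighbouring C-type lectins for galactose-type sugars, *Mgl2* also being expressed by some dendritic cells. *F13a1* encodes the A subunit of the transglutaminase coagulation factor XIII, and *Retnla* a secreted protein of the resistin family that is induced by interleukin 4 signaling and is also made in adipose tissue by other cells.

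Library totals ranged from 5579590 to 18764516 counts. The 8 genes were well above the counting floor in every library, the lowest count being 83 for *Mgl2* and the highest 28699 for *Retnla*. Levels of pan-macrophage genes and of adipocyte genes varied widely between mice of a group, and the first principal component (43.0% of the variance) had r = 0.92 with the pan-macrophage level over the 24 libraries with group means subtracted. The study set aside outlying libraries on principal components without naming them. The libraries were inferred to be 5 (HFD-fed floxed replicates 3, 4 and 6, chow-fed floxed replicate 3 and chow-fed AKO replicate 5), and results are given with and without them. That choice was an inference and rested on expression, including that of the genes described here. *Lama4* itself was at log2 CPM 6.45 ± 0.76 and 6.69 ± 0.40 on chow and 6.19 ± 0.82 and 5.61 ± 0.48 on HFD, in floxed and AKO mice (SD, n = 6 each). The genotype difference of *Lama4* was 0.11 ± 0.34 on chow and −0.69 ± 0.35 on HFD (log2 fold change ± SE, edgeR adjusted p = 0.980 and 0.347), and the HFD value was 0.14 ± 0.32 without the 5 libraries. The paper reports lower *Lama4* by quantitative PCR in eWAT of chow-fed AKO mice, a difference that the chow counts did not show. Counts of 3′ reads do not directly check the loss of the floxed exon, and the position of reads along *Lama4* was not examined. The reason for the difference between the 2 measures was not tested, and genotypes are those of the labels. Of 8 epididymal genes, 2 (*Lcn5* and *Adam7*) were in the table and neither passed the filter, and the highest count was 233 in 1 chow-fed floxed library.

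The genes lie on 6 chromosomes of GRCm38, and *Clec10a* and *Mgl2* are the only close neighbours. *Mrc1* (chr2:14229392-14332057, + strand, 30 exons), *Cd163* (chr6:124304656-124330527, +, 17 exons), *Lyve1* (chr7:110850607-110863239, −, 6 exons) and *Folr2* (chr7:101839988-101857194, −, 6 exons) encode the receptors. *F13a1* (chr13:36867178-37050244, −, 15 exons) and *Retnla* (chr16:48842551-48844461, +, 4 exons) encode the secreted proteins. *Mgl2* (chr11:70130329-70137550, +, 9 exons) and *Clec10a* (chr11:70156197-70170834, +, 10 exons) are separated by 18646 bases. These lectins arose by duplication, and 242 of the 50-base windows of their GENCODE transcripts are shared, which is 15.3% of those of *Mgl2* and 10.6% of those of *Clec10a*. In the last 500 bases, where 3′ reads fall, 3 *Mgl2* transcripts and 2 *Clec10a* transcripts shared none of 451 windows with the other gene, while a longer *Clec10a* transcript shared 92. Reads from that transcript could be divided between the pair, and the values of both genes are to that extent uncertain. *Folr2* and *F13a1* each overlap 2 genes on the opposite strand.

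Start-site windows (300 bases, most of them before the start; RefSeq, GRCm38.p6) are shown for 4 genes because the data below place *Mgl2* and *Retnla* on one side and *Mrc1* and *Folr2* on the other of a split in how the 8 genes varied between mice. Capitals mark the letters AGGAAG on either strand (written CTTCCT on the other), the core to which the myeloid factor PU.1 binds. The windows are chr11:70130107-70130406 (+) for *Mgl2*, chr16:48842359-48842658 (+) for *Retnla*, chr2:14229164-14229463 (+) for *Mrc1* and chr7:101857141-101857440 (−, the first of 2 windows) for *Folr2*.
Mgl2: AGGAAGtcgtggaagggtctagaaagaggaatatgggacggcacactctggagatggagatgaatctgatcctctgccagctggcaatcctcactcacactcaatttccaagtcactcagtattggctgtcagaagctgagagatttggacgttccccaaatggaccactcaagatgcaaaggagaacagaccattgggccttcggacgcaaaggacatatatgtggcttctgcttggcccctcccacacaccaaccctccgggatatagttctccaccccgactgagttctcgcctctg
Retnla: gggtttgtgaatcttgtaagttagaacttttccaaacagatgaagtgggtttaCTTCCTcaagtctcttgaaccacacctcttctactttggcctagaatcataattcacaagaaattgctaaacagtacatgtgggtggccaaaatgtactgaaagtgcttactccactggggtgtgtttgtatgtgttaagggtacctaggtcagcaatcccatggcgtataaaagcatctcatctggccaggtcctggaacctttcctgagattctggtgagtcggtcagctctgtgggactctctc
Mrc1: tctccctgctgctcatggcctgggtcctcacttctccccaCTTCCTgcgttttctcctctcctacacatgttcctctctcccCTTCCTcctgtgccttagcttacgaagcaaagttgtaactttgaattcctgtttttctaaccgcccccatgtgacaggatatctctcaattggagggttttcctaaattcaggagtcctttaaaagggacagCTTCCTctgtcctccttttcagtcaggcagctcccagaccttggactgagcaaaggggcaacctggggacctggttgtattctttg
Folr2: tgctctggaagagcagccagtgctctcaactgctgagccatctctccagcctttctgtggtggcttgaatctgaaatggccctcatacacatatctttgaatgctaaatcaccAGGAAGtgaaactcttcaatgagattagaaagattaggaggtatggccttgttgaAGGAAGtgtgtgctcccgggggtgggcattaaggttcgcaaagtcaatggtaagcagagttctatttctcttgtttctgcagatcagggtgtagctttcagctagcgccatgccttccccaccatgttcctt
The letters occurred 1 time in *Mgl2*, 1 time in *Retnla*, 3 times in *Mrc1* and 2 times in this window of *Folr2*, so matches were present on both sides of the split. *F13a1* held 3 and 2 in its 2 windows and *Cd163* held 0, against 35.4% of 32851 mouse windows with at least 1 match. The STAT6 letters, TTC and GAA with 4 bases of any kind between them, held by 6.95% of windows, occurred in *Retnla* alone among the 6 genes searched (*Lyve1* and *Clec10a* were not searched). *Retnla* was also the only one of the 6 with TATAAA, which 13.6% of windows hold. The MAF letters TGCTGA (19.5% of windows) occurred in both *Folr2* windows and in *Retnla*, and the C/EBP letters TTGCNNCAA (2.08%) in none. Both strands were searched, no match in these windows overlapped a match of another motif, and a match describes letters only.

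On HFD, AKO mice had the lowest median of *Mgl2*, *Cd163*, *Lyve1*, *F13a1* and *Retnla* of the 4 groups, which was not so for *Mrc1*, *Folr2* and *Clec10a*. In AKO mice, *Mgl2*, *Lyve1* and *Cd163* were lower on HFD than on chow by an adjusted p-value, and none of the 8 passed the study's criteria in any comparison. In floxed mice none of the 8 passed either criterion for diet. By the study's criteria a gene was called when it differed 1.5-fold or more with a nominal p-value no larger than 0.001 and the group with more of it averaged 2 CPM or more. The second criterion replaced the nominal p-value by a Benjamini-Hochberg adjusted p-value of at most 0.05 over all 15020 genes (edgeR quasi-likelihood test).

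**Figure D1:**
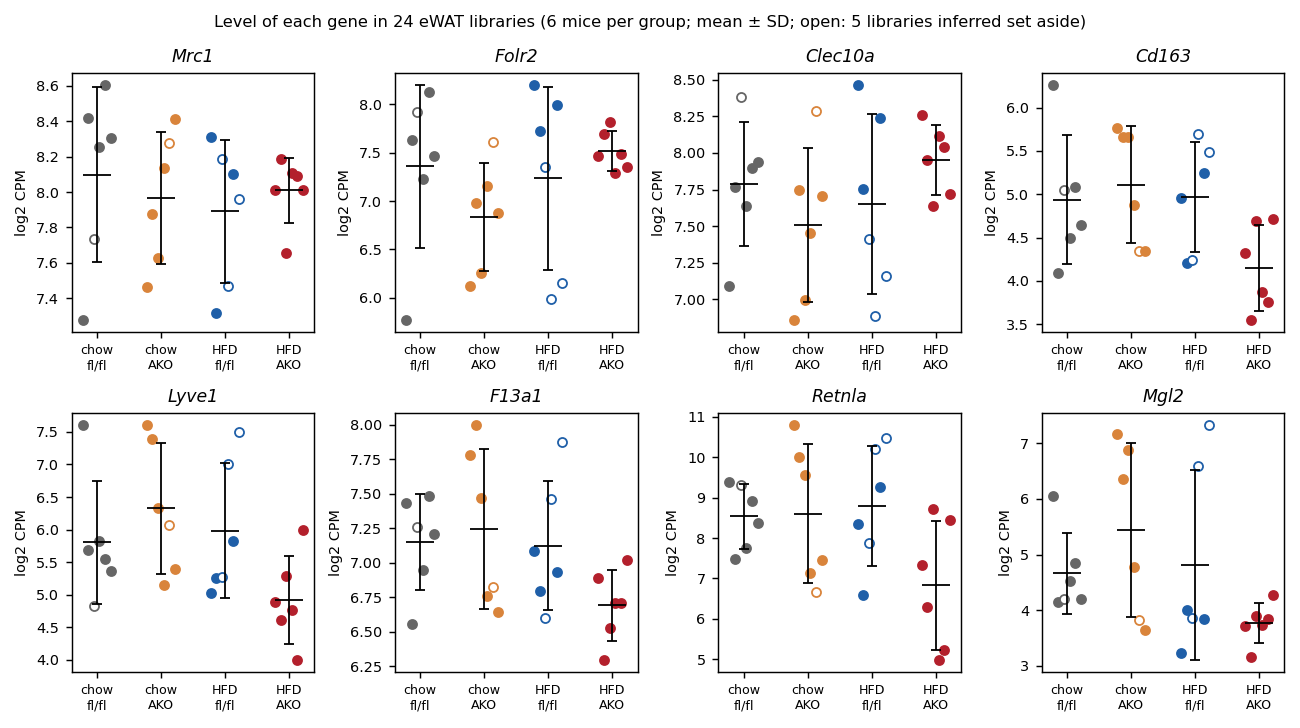
Level of each gene (log2 CPM, y axis) in the 24 eWAT libraries by group (x axis), 1 point per mouse, with group mean ± SD (n = 6) as a bar and whisker and open points for the 5 libraries inferred to have been set aside. *Mgl2* reached 6.05 to 7.33 in 6 mice, none of them HFD-fed AKO, and was between 3.17 and 4.86 in the other 18.

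Among the receptors, *Cd163* was between 17.0 and 76.7 CPM in chow-fed floxed mice (median 29.1) and between 20.2 and 54.4 in chow-fed AKO mice (median 39.9). On HFD it was between 18.4 and 51.7 in floxed mice (median 34.5) and between 11.7 and 26.2 in AKO mice (median 17.3). The HFD-fed AKO group was the lowest and still overlapped each of the others. The diet difference in AKO mice was −1.02 ± 0.35 (log2 fold change ± SE, edgeR adjusted p = 0.0436), against −0.036 ± 0.35 in floxed mice.

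*Lyve1*, the hyaluronan receptor, was between 28.5 and 195 CPM in chow-fed floxed mice (median 49.0) and between 35.3 and 195 in chow-fed AKO mice (median 74.2). On HFD it was between 32.7 and 181 in floxed mice (median 47.7) and between 15.96 and 64.0 in AKO mice (median 28.4). The first 3 groups each held 1 mouse or more above 180 CPM, HFD-fed AKO mice held none, and all 4 groups overlapped. The diet difference in AKO mice was −1.56 ± 0.53 (edgeR adjusted p = 0.0395), and in floxed mice it was 0.19 ± 0.51. Since lymphatic endothelium also carries *Lyve1*, 7 other lymphatic genes were followed. In AKO mice 0 of the 7 passed either criterion for diet (median log2 fold change −0.31), their summed level was between 91.9 and 187 CPM on chow and between 126 and 355 CPM on HFD, and none was at 0 in all mice of a group. Without the 5 libraries 0 of the 7 passed the study's criteria in AKO mice, and *Thy1* (1.18) and *Pdpn* (0.96) were higher by the adjusted p-value (11.9% of all genes). Averaged over genotypes without those libraries, both passed the study's criteria (21.2% of all genes). Across the 24 libraries with group means subtracted, *Lyve1* had r = −0.13 with the mean of the lymphatic list.

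*Mrc1*, the mannose receptor, had the narrowest range of the 8, 2.51-fold over all 24 libraries. Its median was 311 CPM in chow-fed floxed mice (155 to 389), 258 in chow-fed AKO mice (177 to 341), 262 in HFD-fed floxed mice (160 to 318) and 265 in HFD-fed AKO mice (202 to 291). All 4 groups overlapped, and the diet difference in AKO mice was 0.013 ± 0.21. *Folr2*, the folate receptor, had medians of 188 CPM (54.5 to 280) and 122 CPM (69.4 to 195) in chow-fed floxed and AKO mice. Its medians on HFD were 188 CPM (63.2 to 294) and 178 CPM (157 to 226). All of its groups overlapped, and the diet difference was 0.61 ± 0.35 in AKO mice (edgeR adjusted p = 0.198) and −0.060 ± 0.35 in floxed mice.

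The lectin genes had unlike values. *Mgl2* was between 17.7 and 66.1 CPM in chow-fed floxed mice (median 20.7) and between 12.5 and 144 in chow-fed AKO mice (median 54.8). On HFD it was between 9.34 and 161 in floxed mice (median 15.3) and between 8.95 and 19.2 in AKO mice (median 13.8). The last group was the only one without a mouse above 19.2 CPM, yet the groups overlapped at the low end. Its diet difference in AKO mice was the largest of the 8, −2.25 ± 0.68 (4.77-fold lower, edgeR adjusted p = 0.0281), while in floxed mice it was 0.86 ± 0.65 (adjusted p = 0.705).

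*Clec10a* was between 137 and 334 CPM in chow-fed floxed mice (median 228) and between 116 and 312 in chow-fed AKO mice (median 192). On HFD it was between 118 and 353 in floxed mice (median 193) and between 199 and 307 in AKO mice (median 256). The groups overlapped throughout, and its diet difference in AKO mice was 0.38 ± 0.26 (edgeR adjusted p = 0.272). Within a library, *Mgl2* minus *Clec10a* on the log2 CPM scale was between −4.79 and −3.45 in HFD-fed AKO mice, from −4.46 to 0.31 in chow-fed AKO mice, from −5.23 to 0.17 in HFD-fed floxed mice and from −4.18 to −1.05 in chow-fed floxed mice. The relation of the neighbouring genes therefore varied most between mice in the groups other than HFD-fed AKO.

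Of the secreted proteins, *F13a1* had medians of 151 CPM (93.9 to 179) and 145 CPM (99.9 to 256) in chow-fed floxed and AKO mice. On HFD the medians were 129 CPM (96.8 to 235) and 105 CPM (78.6 to 130). Its groups overlapped, and the diet difference in AKO mice was −0.63 ± 0.24, which missed the second criterion (edgeR adjusted p = 0.0594). *Retnla* had the widest range of the 8, from 31.5 to 1784 CPM, which is 56.6-fold. Its medians were 407 CPM (179 to 668) and 464 CPM (101 to 1784) on chow and 474 CPM (95.6 to 1432) and 120 CPM (31.5 to 418) on HFD, in floxed and AKO mice. Its groups overlapped, and the diet difference in AKO mice was −1.89 ± 0.75 (edgeR adjusted p = 0.0677).

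In counts over the list, 0 of 8 genes passed the study's criteria for diet in AKO mice, where 4.12% of all genes did. By the adjusted p-value and fold, 3 of 8 passed, all lower on HFD, where 16.1% of all genes passed, 10.3% lower and 5.79% higher. Of the 8, 5 had an unadjusted p-value under 0.05 (*Cd163*, *Lyve1*, *F13a1*, *Retnla* and *Mgl2*), where 39.8% of all genes did. The median log2 fold change of the 8 was −0.82, beside −0.0031 over all genes. No gene of the 8 had groups that did not overlap in this comparison, where 6.86% of all genes did. The 3 calls were sensitive to single mice. Without chow-fed AKO replicate 1 or 3, or without HFD-fed AKO replicate 1, 2, 4 or 5, 0 of 8 passed, and without chow-fed AKO replicate 2, 1 passed. Without chow-fed AKO replicate 5 or 6, or HFD-fed AKO replicate 6, 5 passed. Over these leave-one-out fits the difference of *Mgl2* stayed between −2.49 and −1.87, that of *Lyve1* between −1.85 and −1.24 and that of *Cd163* between −1.16 and −0.88, with adjusted p-values of up to 0.0727, 0.111 and 0.103.

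In floxed mice, 0 of 8 genes passed the study's criteria for diet (0.173% of all genes), and 0 of 8 the adjusted p-value (0.0%). None had an unadjusted p-value under 0.05, where 9.01% of all genes did. With DESeq2 and limma-voom 0 of 8 passed either criterion as well. The median log2 fold change of the 8 was −0.014. Averaged over genotypes, 0 of 8 passed the study's criteria (2.22% of all genes) or the adjusted p-value (5.87%). The averaged diet difference was −0.70 ± 0.46 for *Mgl2* and −0.53 ± 0.25 for *Cd163*, the only one of the 8 with an unadjusted p-value under 0.05 (35.5% of all genes).

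Between genotypes on chow, 0 of 8 genes passed the study's criteria (0.113% of all genes), 0 of 8 the adjusted p-value (0.0%), and 0 of 8 had an unadjusted p-value under 0.05 (5.85%). The difference of largest size was that of *Mgl2*, 1.22 ± 0.66 (edgeR adjusted p = 0.907). On HFD, *Mgl2* (−1.90 ± 0.68), *Retnla* (−1.86 ± 0.75), *Lyve1* (−1.25 ± 0.52) and *Cd163* (−0.86 ± 0.35) had lower estimates in AKO than in floxed mice. These 4 of 8 had unadjusted p-values under 0.05, where 14.8% of all genes did, and edgeR adjusted p-values between 0.293 and 0.301. None passed the study's criteria (0.173% of all genes) or the adjusted p-value (0.0%). With DESeq2 5 of the 8 had an unadjusted p-value under 0.05 (17.0% of all genes), with limma-voom 3 of the 8 (12.3%), and neither tool called any of the 8.

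The difference between the diet responses of the genotypes, tested as an interaction (AKO minus floxed), was −3.11 ± 0.94 for *Mgl2*, −2.53 ± 1.04 for *Retnla* and −1.74 ± 0.73 for *Lyve1*. These 3 had unadjusted p-values under 0.05, where 15.6% of all genes did, and edgeR adjusted p-values of 0.235, 0.275 and 0.277. None of the 8 passed the study's criteria (0.386% of all genes) or the adjusted p-value (0.00666%), so that the responses of the 2 genotypes were not shown to differ. The interaction of *Mgl2* passed the study's criteria with DESeq2 (−3.14).

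Without the 5 libraries, more of the 8 genes passed for diet in AKO mice, and the lower estimates between genotypes on HFD came closer to 0. For diet in AKO mice, *Mgl2* passed the study's criteria (−2.46 ± 0.48, edgeR adjusted p = 0.000898), as did 15.7% of all genes. This call was lost with limma-voom, the study's tool, on the same libraries, where the *Mgl2* difference was −2.003 ± 0.53 (limma adjusted p = 0.00648) and 0 of 8 passed the study's criteria. By the adjusted p-value 6 of 8 passed, where 27.7% of all genes did. Of these *Cd163* (−1.14), *Lyve1* (−1.64), *F13a1* (−0.72), *Retnla* (−2.12) and *Mgl2* were lower (15.8% of all genes) and *Folr2* (0.79) was higher (11.9%). In floxed mice the *Mgl2* estimate turned from 0.86 to −1.22 ± 0.59 (edgeR adjusted p = 0.125), and 0 of 8 passed either criterion (11.8% and 22.9% of all genes).

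Averaged over genotypes, *Mgl2* passed the study's criteria without the 5 libraries (−1.84 ± 0.39, with 21.2% of all genes). With limma-voom on the same libraries it was −1.52 ± 0.42 and missed them, as did the other 7. By the adjusted p-value *Cd163* (−0.70) and *Lyve1* (−1.26) were lower as well and *Folr2* (0.68) was higher, which made 4 of 8 where 29.4% of all genes passed. Between genotypes on HFD the *Mgl2* estimate went from −1.90 to 0.076 ± 0.55, that of *Lyve1* from −1.25 to −0.35 ± 0.55 and that of *Retnla* from −1.86 to −0.96 ± 0.80. None of the 8 passed either criterion for genotype on chow, genotype on HFD or the interaction (study's criteria in 0.209%, 0.565% and 0.68% of all genes), the last being −1.25 ± 0.73 for *Mgl2*. The 2 HFD-fed floxed mice with the highest *Mgl2* (replicates 4 and 6, log2 CPM 6.60 and 7.33) were among the 5. Also among them were HFD-fed floxed replicate 3 (3.87), chow-fed floxed replicate 3 (4.20) and chow-fed AKO replicate 5 (3.83). Chow-fed floxed replicate 1 (6.05) and chow-fed AKO replicates 1 (7.17), 2 (6.36) and 3 (6.88) were high in *Mgl2* and were kept. The choice by itself therefore moved the diet estimates of *Mgl2* downwards, and these fits are not separate support for them.

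**Figure D2:**
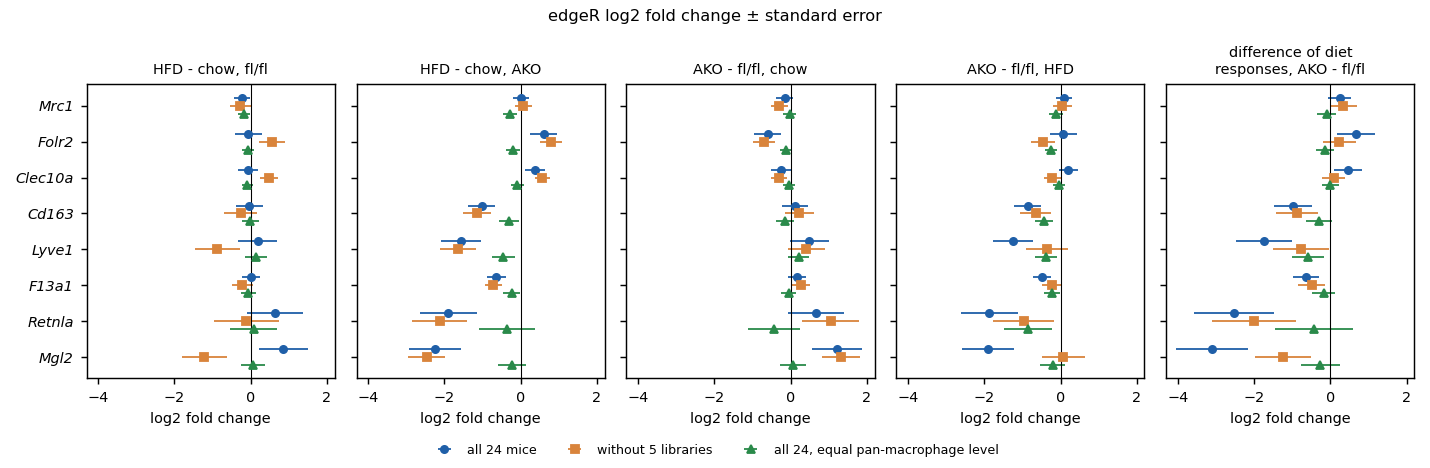
Log2 fold change (x axis) with its edgeR standard error for each gene (y axis) in 5 comparisons, with all 24 mice (circles), without the 5 libraries (squares) and with all 24 mice at equal pan-macrophage level (triangles). For HFD against chow in AKO mice, *Mgl2* stood at −2.25, −2.46 and −0.22 in the 3 fits, and for genotype on HFD at −1.90, 0.076 and −0.21.

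The general macrophage signal of the tissue was measured beside the 8 genes. The mean log2 CPM of 12 pan-macrophage genes (among them *Adgre1*, *Csf1r*, *Cd68* and the C1q genes) was 8.26 ± 0.95 and 7.79 ± 0.85 in chow-fed floxed and AKO mice (SD, n = 6 each), and 8.19 ± 0.95 and 8.84 ± 0.17 in the same genotypes on HFD. In summed CPM it ranged from 1984 to 14800 and from 2833 to 10666 on chow, and from 2858 to 15959 and from 9237 to 15207 on HFD, in floxed and AKO mice. All 12 were detected in every group, and their median log2 fold change for diet in AKO mice was 0.83. Of the 12, 0 passed the study's criteria and *Mertk* (0.65) and *Cd68* (1.46) passed the adjusted p-value (5.79% of all genes were higher by it). Without the 5 libraries the median was 0.99, 1 of the 12 passed the study's criteria (15.7% of all genes) and 7 the adjusted p-value, all higher (11.9%). Averaged over genotypes without those libraries, 3 and 7 of the 12 passed (21.2% and 29.4% of all genes). The median difference of the 12 between genotypes on HFD went from 0.45 to −0.056. In whole tissue, fewer cells of a type and less RNA per cell cannot be told apart.

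Fitted within groups over all 24 mice, each of the 8 genes had a slope on the pan-macrophage level with an edgeR adjusted p-value of at most 0.05, as had 23.8% of all genes downwards and 26.4% upwards. *Mgl2* had −1.44 ± 0.15 log2 units per log2 unit (adjusted p = 4.87e-08), *Retnla* −1.04 ± 0.31 (0.00649), *Lyve1* −0.97 ± 0.13 (1.30e-06), *Cd163* −0.58 ± 0.10 (6.02e-05) and *F13a1* −0.34 ± 0.093 (0.00444). The slopes of *Folr2* (0.83 ± 0.082, adjusted p = 1.50e-08), *Clec10a* (0.51 ± 0.074, 4.77e-06) and *Mrc1* (0.31 ± 0.084, 0.00359) were positive. The genes called markers of resident macrophages thus had slopes of both signs on the level of macrophage genes in general. Without the 5 libraries all 8 kept their sign, and *F13a1* (adjusted p = 0.0881) and *Retnla* (0.0781) missed the threshold, where 13.3% of all genes had a lower and 15.7% a higher slope that passed.

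As a description over the 24 libraries with group means subtracted, which share the pan-macrophage measure and the scaling of each library, *Mgl2* had r = −0.89 with the pan-macrophage level (Spearman's rho −0.87, and r = −0.92 without the 2 libraries farthest from the median). *Lyve1* had −0.82 (rho −0.78, −0.75 without those 2) and *Cd163* −0.76 (rho −0.72, −0.64). *F13a1* had −0.62 (rho −0.66, −0.65) and *Retnla* −0.61 (rho −0.62, −0.63). For these 5 genes r was negative in each of the 4 groups, ranging for *Mgl2* from −0.97 in chow-fed AKO mice to −0.32 in HFD-fed AKO mice, in which the pan-macrophage level itself varied least. *Folr2* had 0.92 (rho 0.83, 0.86) and *Clec10a* 0.84 (rho 0.74, 0.80), both positive in all 4 groups. *Mrc1* had 0.62 (rho 0.61, 0.40), and in HFD-fed AKO mice its r was −0.31. Among all tested genes with a symbol, 1.15% had an r as low as *Mgl2*, 4.28% as *Lyve1* and 7.66% as *Cd163*. For *F13a1* and *Retnla* the shares were 15.7% and 16.6%. An r as high as that of *Folr2* was held by 2.12%, of *Clec10a* by 6.53% and of *Mrc1* by 18.6%.

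**Figure D3:**
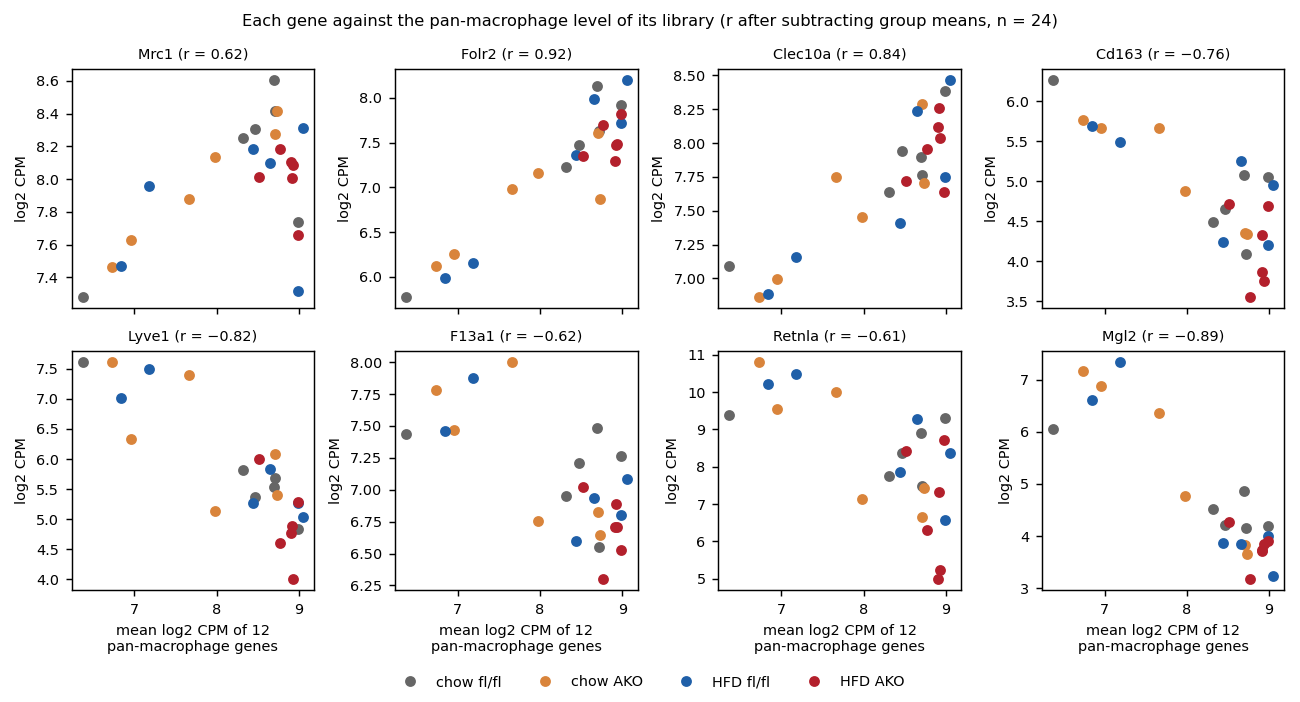
Level of each gene (log2 CPM, y axis) against the mean log2 CPM of 12 pan-macrophage genes in the same library (x axis), 1 point per mouse coloured by group, with r over 24 libraries after subtracting group means. In the 6 libraries with least pan-macrophage signal (6.37 to 7.66), *Mgl2* (r = −0.89) was between 6.05 and 7.33 and *Folr2* (r = 0.92) between 5.77 and 6.98.

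With the pan-macrophage level as a covariate in the fit, 0 of 8 genes passed either criterion or an unadjusted p-value of 0.05 in any of the 6 comparisons (1.13% of all genes passed the study's criteria for diet in AKO mice, 0.293% the adjusted p-value and 19.8% the unadjusted one). The diet difference in AKO mice went from −2.25 to −0.22 ± 0.36 for *Mgl2*, from −1.89 to −0.35 ± 0.73 for *Retnla*, from −1.56 to −0.45 ± 0.31 for *Lyve1* and from −1.02 to −0.31 ± 0.26 for *Cd163*. Without the 5 libraries 0 of 8 passed either criterion in this fit. *Mrc1* then had lower estimates on HFD and missed the second criterion on fold, at −0.57 ± 0.19 in floxed mice (edgeR adjusted p = 0.0352) and −0.51 ± 0.15 averaged over genotypes (adjusted p = 0.0124), and in AKO mice it was −0.46 ± 0.18 (adjusted p = 0.0977). It was the only one of the 8 with an unadjusted p-value under 0.05 in these 3 comparisons, where 37.9%, 41.9% and 30.6% of all genes had one. For genotype on HFD, 2 of 8 had one, *Cd163* (−0.67 ± 0.26) and *Folr2* (−0.42 ± 0.19), where 15.3% of all genes did. Since the covariate differed between the groups, the fit describes mice at equal macrophage signal and does not separate that signal from diet.

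The 8 genes fell into a set of 5 and a set of 3 that varied in opposite directions between mice of a group. Among *Cd163*, *Lyve1*, *F13a1*, *Retnla* and *Mgl2* the 10 pairs had r between 0.71 and 0.85, highest for *Cd163* and *Retnla*. Among *Mrc1*, *Folr2* and *Clec10a* the 3 pairs had r between 0.55 and 0.84, highest for *Folr2* and *Clec10a*. All 15 pairs across the sets were negative, from −0.81 for *Folr2* and *Mgl2* to −0.34 for *F13a1* and *Clec10a*, with a median of −0.52, and the neighbours *Clec10a* and *Mgl2* had r = −0.77. The sets were drawn after these values were seen, and the correlations, over 24 libraries with group means subtracted, are a description. The first principal component of all genes had r = −0.86 with *Mgl2* and 0.87 with *Folr2*. The split therefore lay along the main axis of variation of all genes, at least for *Mgl2* and *Folr2*, and is not particular to macrophage genes.

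**Figure D4:**
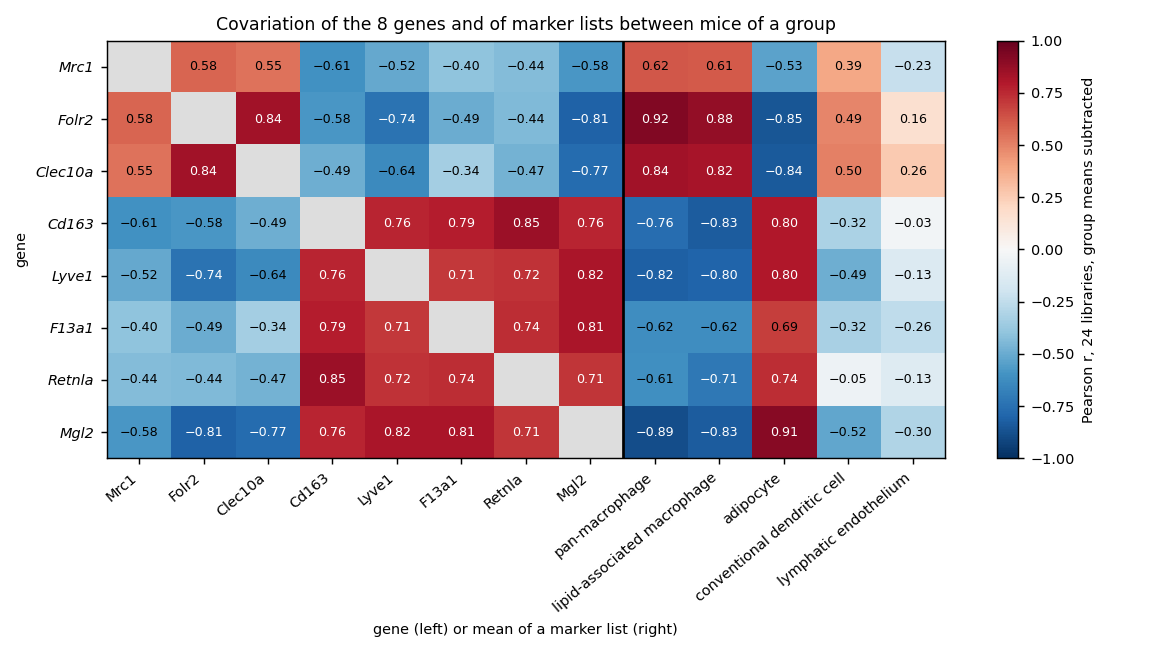
Pearson r of each gene (rows) with each of the 8 genes (left columns) and with the mean of 5 marker lists (right columns), over 24 libraries with group means subtracted, from −1 (blue) to 1 (red). *Mrc1*, *Folr2* and *Clec10a* were positively related to each other and to the pan-macrophage list, and the other 5 to each other and to the adipocyte list.

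The same 6 libraries that were highest in *Mgl2* (66.1 to 161 CPM) were lowest in the pan-macrophage level, 6.37 to 7.66 against 7.98 to 9.05 in the other 18. They were 1 chow-fed floxed, 3 chow-fed AKO and 2 HFD-fed floxed mice. In them the mean log2 CPM of 8 adipocyte genes was 9.98 to 10.8, against 8.22 to 9.65 in the others, and *Retnla* was 9.38 to 10.8 against 4.98 to 9.31, *Cd163* 5.49 to 6.26 against 3.55 to 5.25 and *Lyve1* 6.34 to 7.61 against 4.0 to 6.08. The ranges of *Retnla*, *Cd163* and *Lyve1* did not meet. Those of *F13a1* (7.43 to 7.999 against 6.30 to 7.49), *Folr2* (5.77 to 6.98 against 6.87 to 8.20), *Mrc1* (7.28 to 7.96 against 7.32 to 8.60) and *Clec10a* (6.86 to 7.75 against 7.41 to 8.46) overlapped. The 6 were picked by their *Mgl2* level, so these ranges are given with no test.

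The adipocyte list had r = −0.93 with the pan-macrophage list, and its relation to the 8 genes was the mirror image, from 0.91 for *Mgl2* to −0.85 for *Folr2*. Its 8 genes summed to between 4485 and 17287 CPM in chow-fed AKO mice and between 3179 and 7052 CPM in HFD-fed AKO mice. All 8 were detected in every group, and 4 were lower on HFD in AKO mice by the adjusted p-value (10.3% of all genes). *Lep*, which encodes leptin, also passed the study's criteria (−2.10 ± 0.51), as did 4.12% of all genes. The part of adipocyte and macrophage content in the differences of the 8 genes was not tested beyond the fit at equal pan-macrophage level.

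Other macrophage programmes gave the context. Of 13 genes of lipid-associated macrophages (such as *Trem2*, *Cd9* and *Gpnmb*), 0 passed the study's criteria for diet in AKO mice and 3 passed the adjusted p-value, all higher (5.79% of all genes), with a median log2 fold change of 1.26. Without the 5 libraries 9 passed the study's criteria (15.7% of all genes) and 12 the adjusted p-value (27.7% of all genes, 11.9% higher), all higher, with a median of 1.69. Between mice of a group the mean of this list had r = −0.83 with *Mgl2*, −0.83 with *Cd163*, −0.80 with *Lyve1* and 0.88 with *Folr2*. Within HFD-fed AKO mice the r of *Folr2* was of the other sign, −0.25.

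Of 23 other genes of resident macrophages, *Cd38*, an NAD-consuming ectoenzyme (−1.16 ± 0.25), and *Cd209g*, a C-type lectin (−1.84 ± 0.41), passed the study's criteria for diet in AKO mice. Both were lower on HFD, and 4.12% of all genes passed. *Cd209g* also passed them for the interaction (−2.13 ± 0.57), where 0.386% of all genes did. Without the 5 libraries both passed for diet in AKO mice (−1.22 and −1.957), as did 15.7% of all genes. The interaction of *Cd209g* (−1.94 ± 0.59) then missed the criteria. *Txnip*, named here after its values were seen, passed them for the interaction in the other direction (1.76 ± 0.41), as did 0.68% of all genes. With all mice, 5 of the 23 were lower and 1 was higher for diet in AKO mice by the adjusted p-value (10.3% and 5.79% of all genes), and the median of the list was −0.17. Without the 5 libraries 7 were lower and 2 were higher (15.8% and 11.9% of all genes). The mean of this list had r = 0.84 with *F13a1*, 0.69 with *Cd163*, 0.59 with *Retnla*, 0.57 with *Mgl2* and 0.44 with *Lyve1*, but −0.35 with *Mrc1*, −0.28 with *Folr2* and −0.090 with *Clec10a*. The last 3 were weak and not of 1 sign in all groups for *Folr2* and *Clec10a*, and within chow-fed floxed mice *Lyve1* had r = 0.00014.

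Of 16 genes of alternative activation and type 2 immunity, *Il1rl1*, the interleukin 33 receptor, passed the study's criteria and was higher on HFD. Its difference was 1.52 ± 0.27 in AKO mice (4.12% of all genes passed) and 1.15 ± 0.19 averaged over genotypes (2.22% passed). The median of the list was 0.11 in AKO mice. CD163 works in hemoglobin and heme handling, of which 12 genes were followed. On HFD in AKO mice *Slc40a1*, which encodes the iron exporter ferroportin, was higher (2.23 ± 0.47) and *Hp*, which encodes haptoglobin, was lower (−1.33 ± 0.26). Both passed the study's criteria, as did 4.12% of all genes. Averaged over genotypes they passed as well, at 1.32 ± 0.32 and −0.85 ± 0.18, where 2.22% of all genes did. By the adjusted p-value 4 of the 12 were higher and 1 was lower on HFD in AKO mice (5.79% and 10.3% of all genes), and the median of the list was 0.83. Without the 5 libraries 7 were higher and 1 was lower (11.9% and 15.8% of all genes), with a median of 1.05.

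Lists of other cells were followed as well. Among 8 monocyte genes *Ace* passed the study's criteria averaged over genotypes (0.62 ± 0.14), as did 2.22% of all genes. Among 6 mesothelial genes *Msln* passed them for diet in AKO mice (−2.36 ± 0.60), as did 4.12% of all genes. For diet in AKO mice, 0 of 11 genes of conventional dendritic cells, 0 of 13 macrophage ligands and survival factors and 0 of 8 T and B cell genes passed the study's criteria, with medians of −0.36, 0.044 and 0.53. By the adjusted p-value 2 of the 13 ligands and survival factors and 2 of the 6 mesothelial genes were lower, where 10.3% of all genes were. Of the 8 monocyte genes 1 was lower and 1 was higher by it (5.79% of all genes were higher). Without the 5 libraries, *Cd74* of the dendritic cell list passed the study's criteria for diet in floxed mice (1.98 ± 0.47, 11.8% of all genes). The median of the T and B cell list in that comparison was 2.24.

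The genes most like each of the 8 across the 24 libraries, by Pearson r of log2 CPM with group means subtracted, did not include any gene for more than 1 of the 8. For *Mgl2* they were *Ankrd40* (0.96), *Rhoq* (0.95) and *Cd320* (0.95), and for *Folr2* *Snx5* (0.96), *Ptpro* (0.95) and *Blnk* (0.95). *Cd163* was most like *Rbfox2* (0.92), *Pla2g12a* (0.91) and *Atp6v0e2* (0.91), *Lyve1* most like *Pcsk6*, *Phgdh* and *2210406O10Rik* (each 0.89), and *Retnla* most like *Serpina3c* (0.91), *Podxl* (0.89) and *Tlcd1* (0.89). *F13a1* was most like *Ccl24* (0.91), which encodes an eosinophil chemokine, followed by *Cisd1* (0.90) and *Ifi27* (0.89). *Clec10a* was most like *Lima1* (0.94), *Bmper* (0.94) and *Cltc* (0.93), and *Mrc1* most like *Hmga1* (0.89), *Sh3kbp1* (0.89) and *Cd180* (0.88), a surface receptor of B cells and myeloid cells. For the mean of the 8 genes, *Ccl24* came first (0.92), followed by *Tlcd2*, *Tlcd1*, *Rbpms2*, *Laptm4b*, *Cdo1*, *Mylk*, *2610016A17Rik*, *Nudt4* and *Thrsp* (0.90 to 0.87). The genes were not scaled before averaging, so *Retnla* and *Mgl2*, of widest range, weighed most, and the mean mixes genes that varied in opposite directions. *Ccl24* is itself in the lists of other resident macrophage genes and of alternative activation.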

How the data were processed

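QuantSeq 3′ libraries of eWAT from 24 mice were mapped and counted by the authors on the Bluebee platform (Lexogen QuantSeq pipeline), and the deposited table holds raw counts per gene and library. GRCm38 positions and the symbols of 14067 genes came from the authors' other table, a normalized signal (counts over size factors) not used for any value. Where that table gave no symbol, the GENCODE name was used. The submitters' processing notes name R 4.0.3 and DESeq2 1.30.

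All tests were run with edgeR 4.0.16 in R 4.3.3 (TMM factors, quasi-likelihood test, 1 coefficient per group, all 24 libraries), and Benjamini-Hochberg adjustment ran over 15020 genes. The study used limma-voom after removing outliers, and limma 3.58.1 and DESeq2 1.42.0 served as alternatives. Log2 CPM used a prior count of 0.5. Scripts were tested on simulated data. Groups and replicate numbers came from the labels. Within groups no pair of libraries agreed within sampling noise (smallest chi-square per degree of freedom 5.60 over 60 pairs). Library totals were 5579590 or more and differed between groups, and depth limits precision through counting error. Those of HFD-fed AKO mice were between 9156492 and 11640690. All libraries of the other groups had larger totals except chow-fed floxed replicate 1 (10195574) and chow-fed AKO replicate 5 (5579590). The part of depth in the differences was not tested.

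The members and lists were chosen with earlier results of these data known. Named were the 8 members, *Lama4*, from each list the genes called in any comparison (at most 4, otherwise the 2 of lowest p in the averaged diet comparison, most of which are not repeated here), and for each member the 3 genes, and for their mean the 10 genes, of highest r. *Selenop* and *Sepp1* are 2 names of 1 gene. Each of the 24 mice was left out in turn, and other scalings, filters, tools and a replicate block were tried.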

Additional observations from a re-analysis of the deposited data

Results flagged for a closer look

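For each of the 8 genes in each group of 6 mice, the gap of the highest or lowest mouse to its nearest neighbour was set against the range of the group (Dixon's test). Of 32 groups tested, 3 exceeded it, and chance gives about 5%. In chow-fed floxed mice, replicate 1 was highest in *Lyve1* (log2 CPM 7.61, gap over range 0.642) and in *Mgl2* (6.05, gap over range 0.628), and its pan-macrophage level, 6.37, was the lowest of all 24 libraries. In HFD-fed AKO mice, replicate 3 was lowest in *Mrc1* (7.66, gap over range 0.666).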

How the results depend on the processing

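Members called by the study's criteria for diet in AKO mice numbered 0 in the fit of all 24 mice and 1 (*Mgl2*) with DESeq2, with only the 2 groups compared and without the 5 libraries, and 3 when the nominal p-value was replaced by the adjusted one. By the adjusted p-value (3 with all mice) they numbered 5 with DESeq2, 5 with only the 2 groups, 1 with limma-voom, 6 without the 5 libraries, 7 without them by limma-voom (of which 0 passed the study's criteria), and 0 to 5 with 1 mouse left out. With edgeR, 16.1% of all genes passed it with all mice and 27.7% without the 5 libraries. Shares over all genes are not given here for the other fits, so their counts describe the fits and not the members. Averaged over genotypes, without the 5 libraries 1 was called and 4 passed the adjusted p-value, and 0 and 3 with limma-voom as well. For the interaction DESeq2 called 1. Other scalings and filters left these counts within 1.5 times. Replicate numbers did not pair the mice: same-numbered libraries had r between −0.52 and 0.69, 15 of 36 over 0.1, and 4 of 24 libraries were closest to one of their own number. With the replicate block 1 member passed the adjusted p-value for diet in AKO mice.

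Signs turned as follows, and the cause was not tested. For diet in floxed mice, *Cd163* was 0.043 with limma-voom and 0.088 with the replicate block (−0.036 with all mice), and *F13a1* −0.022 and −0.0038 (0.0090). Without the 5 libraries and, second, also with limma-voom, *F13a1* was −0.22 and −0.19, *Lyve1* −0.87 and −0.63, *Folr2* 0.56 and 0.75, *Retnla* −0.11 and −0.33, *Clec10a* 0.48 and 0.49 and *Mgl2* −1.22 and −1.04. For genotype on HFD, *Folr2* was −0.45 and −0.46, *Clec10a* −0.21 and −0.20 and *Mgl2* 0.076 and 0.076. With 1 mouse left out, diet in floxed mice gave −0.20 to 0.36 for *Cd163*, −0.24 to 0.82 for *Lyve1*, −0.27 to 0.11 for *Folr2*, −0.18 to 0.12 for *F13a1* and −0.27 to 0.064 for *Clec10a*. Diet in AKO mice gave −0.075 to 0.10 for *Mrc1*, genotype on chow −0.019 to 0.52 for *Cd163* and −0.015 to 0.28 for *F13a1*, and genotype on HFD −0.013 to 0.17 for *Mrc1* and −0.11 to 0.27 for *Folr2*. With *Csf1r* and *Adgre1* in place of the pan-macrophage list, 0 of 8 members were called in each comparison.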
